A study of Mus musculus with 6 samples.

Results

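Genes of the proteasome and of the enzymes that attach ubiquitin to proteins or take it off were compared between mouse fat 7 days after grafting and fat before grafting. They were taken by name: protein-coding genes whose symbols mark them as proteasome genes (Psma to Psmg), activating E1 enzymes (Uba), conjugating E2 enzymes (Ube2), HECT ligases (Ube3), cullins (Cul), F-box proteins (Fbxw, Fbxl and Fbxo) or deubiquitinases (Usp, Uchl and Otud), without Psmc3ip and Usp18. The deposited table lists 12163 genes, and 124 of them met this rule, against 247 in the whole GENCODE annotation. Of the 124 genes, 31 were proteasome genes and 93 were ubiquitin enzyme genes. One member, Usp6nl, carries a matching name but encodes a GTPase-activating protein of Rab proteins.

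The tissue was fat from C57BL/6 mice, an inbred strain, of wild type genotype, with 3 libraries of grafts at day 7 and 3 libraries of fat before grafting, described by the submitters as biological replicates. The labels give no age, sex, fat depot, graft site or pooling. Each value is a normalized read count, obtained by dividing a gene's reads by a size factor common to its library. Errors are SDs over 3 libraries. The listed genes took between 13027776 and 15924559 reads per library. The table holds few genes without a difference: 51 of 10854 tested genes, and 2 of 123 tested members, lay within 0.25 of 0 on the log2 scale. A member outside the table was therefore not analysed here, and its absence is not a result. Psmb7, Psmb8, Psmb10, Psme2, Uba1, Cul3, Cul4a, Fbxw7, Usp7, Usp14 and Uchl5 were among these.

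The proteasome is a barrel with a regulatory cap. The barrel (20S) has alpha rings that gate it and beta rings that hold the cutting sites, and the cap (19S) has ATPases that unfold the substrate and subunits that bind ubiquitin and remove it. Interferon exchanges standard beta subunits for immunosubunits and induces another cap, the activator made by Psme1 and Psme2. Ubiquitin reaches its target through an E1, an E2 and an E3 ligase, of which the cullin and F-box complexes are the largest family, and deubiquitinases reverse the step. Related cascades attach SUMO, NEDD8, UFM1 and ISG15, which have their own E1 and E2 enzymes. Of this machinery in fat, the membrane-bound transcription factor Nfe2l1 is known to keep proteasome genes expressed in brown fat, through antioxidant response elements in their promoters.

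Promoter sequences are shown for 5 members on which the comparisons below turn: the standard subunits Psmb5 and Psmb6, the immunosubunit Psmb9, the interferon-linked activator gene Psme1 and the mitotic E2 gene Ube2c. They come from RefSeq on GRCm38.p6 and run from 250 bases before to 50 bases after the start of transcription, in the direction of the gene. Capitals mark a searched motif. In Psmb5 (chr14:54617946-54618245, minus strand) and Psmb6 (chr11:70525107-70525406, plus strand) they mark TGACNNNGC, the core of the antioxidant response element. In Psmb9 (chr17:34187281-34187580, minus strand) they mark a CCAAT box on the opposite strand, and in Psme1 (chr14:55578244-55578543, plus strand) the core of the interferon-stimulated response element, TTTC followed by any 2 bases and TTTC. In Ube2c (chr2:164769679-164769978, plus strand) they mark CCAAT boxes of both strands, 2 of which overlap, and TTTGAA on the opposite strand, the core of the cell cycle homology region.
Psmb5: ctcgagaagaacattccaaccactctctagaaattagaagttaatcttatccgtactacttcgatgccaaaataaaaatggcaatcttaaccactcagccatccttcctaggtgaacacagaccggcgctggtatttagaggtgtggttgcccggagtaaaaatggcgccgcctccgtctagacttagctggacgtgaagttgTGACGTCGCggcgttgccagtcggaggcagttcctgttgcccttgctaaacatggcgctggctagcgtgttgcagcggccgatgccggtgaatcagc
Psmb6: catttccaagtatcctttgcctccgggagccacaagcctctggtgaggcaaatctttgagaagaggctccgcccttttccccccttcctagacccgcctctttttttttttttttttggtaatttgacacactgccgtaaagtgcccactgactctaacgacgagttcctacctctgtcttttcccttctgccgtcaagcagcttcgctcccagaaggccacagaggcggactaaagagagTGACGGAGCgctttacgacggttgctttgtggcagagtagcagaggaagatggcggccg
Psmb9: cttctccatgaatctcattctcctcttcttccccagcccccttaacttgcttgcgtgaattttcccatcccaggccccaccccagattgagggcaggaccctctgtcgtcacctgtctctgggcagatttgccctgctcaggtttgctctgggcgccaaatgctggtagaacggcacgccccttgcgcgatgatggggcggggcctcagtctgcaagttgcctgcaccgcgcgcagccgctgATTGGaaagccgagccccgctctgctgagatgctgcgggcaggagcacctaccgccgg
Psme1: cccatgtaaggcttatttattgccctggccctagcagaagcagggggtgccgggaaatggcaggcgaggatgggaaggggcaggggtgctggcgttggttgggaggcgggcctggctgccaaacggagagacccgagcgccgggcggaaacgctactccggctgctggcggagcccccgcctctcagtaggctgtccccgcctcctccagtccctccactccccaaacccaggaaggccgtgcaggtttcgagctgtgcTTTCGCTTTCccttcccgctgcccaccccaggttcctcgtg
Ube2c: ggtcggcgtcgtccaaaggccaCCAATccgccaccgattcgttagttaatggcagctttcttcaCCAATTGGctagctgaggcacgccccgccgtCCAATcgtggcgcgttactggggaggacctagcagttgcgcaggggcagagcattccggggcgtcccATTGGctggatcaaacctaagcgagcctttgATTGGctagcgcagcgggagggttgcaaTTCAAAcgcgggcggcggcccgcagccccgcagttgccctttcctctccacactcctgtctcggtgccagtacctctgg

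Windows were found for 103 of the 124 members, and both strands were searched. The TGACNNNGC core was in 5 of 27 proteasome genes with a window (18.5%), namely Psmb5, Psmb6, Psmd12, Psmd9 and Psme4, against 14.0% of 27025 genes. It was not particular to proteasome genes, as 17 of 76 ubiquitin enzyme genes with a window held it (22.4%). The interferon-stimulated core was in 4 of the 27 proteasome genes (14.8%), namely Psmb3, Psmd9, Psme1 and Psmg4, against 3.99% of all genes. CCAAT was in 10 of the 27 (37.0%), against 41.1% of all genes. TTTGAA was in 13 of 76 ubiquitin enzyme genes with a window (17.1%), against 20.2% of all genes. A match says that these letters occur in the window, not that a factor binds there. All 4 motifs were searched once, without a test.

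Of the 123 tested members, 57 were higher and 30 were lower in grafts and 36 were not called (limma, adjusted p under 0.05), so 70.7% were called. Among all 10854 tested genes 80.4% were called, 41.3% higher and 39.2% lower. The share of members called was thus no larger than in the table as a whole. As deposited, the members' split leaned to higher values (46.3% higher, 24.4% lower). Most changes were small, with a log2 fold change of 1 or more for 9 higher and of -1 or less for 10 lower members, where 25.6% and 27.8% of all tested genes were. The median log2 fold change, grafts over before grafting, was 0.38 for members and 0.28 for all tested genes. The values of the groups did not overlap for 80 members that were higher and 39 that were lower in grafts, against 49.6% and 48.0% of all tested genes. Fbxo39 was too low to be tested, with 1.0, 0 and 1.0 normalized counts in the 3 grafts, against 6.9, 6.1 and 3.9 before grafting.

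Directions of small changes depended on how the libraries were put on 1 scale, and below "higher" and "lower" refer to the values as deposited unless another scaling is named. The median of all tested genes was 0.14 when libraries were set to median ratios and 0.15 when their listed totals were made equal. It was 0.04 for equal upper quartiles, and -0.47 when ribosomal protein genes were held at no change. Members called higher and lower were then 32 and 38, 31 and 35, 22 and 39, and 5 and 44, in that order. Higher calls made up 46%, 47%, 36% and 10% of the members' calls, against 44%, 44%, 40% and 26% for all tested genes. As deposited these shares were 66% and 51%. Of the 57 higher calls, 22 were kept under each of the first 3 of these scalings, and 5 under all 4: Fbxl5, Fbxl16, Fbxo17, Ube2c and Usp13. All 30 lower calls were kept under all 4. Of the same calls, 32 higher and 14 lower were kept whichever library was left out. Without graft replicate 2 the counts were 33 higher and 19 lower, and without before-grafting replicate 1 they were 37 higher and 18 lower. They were 19 lower without graft replicate 3, before-grafting replicate 2 or before-grafting replicate 3.

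**Figure D1:**
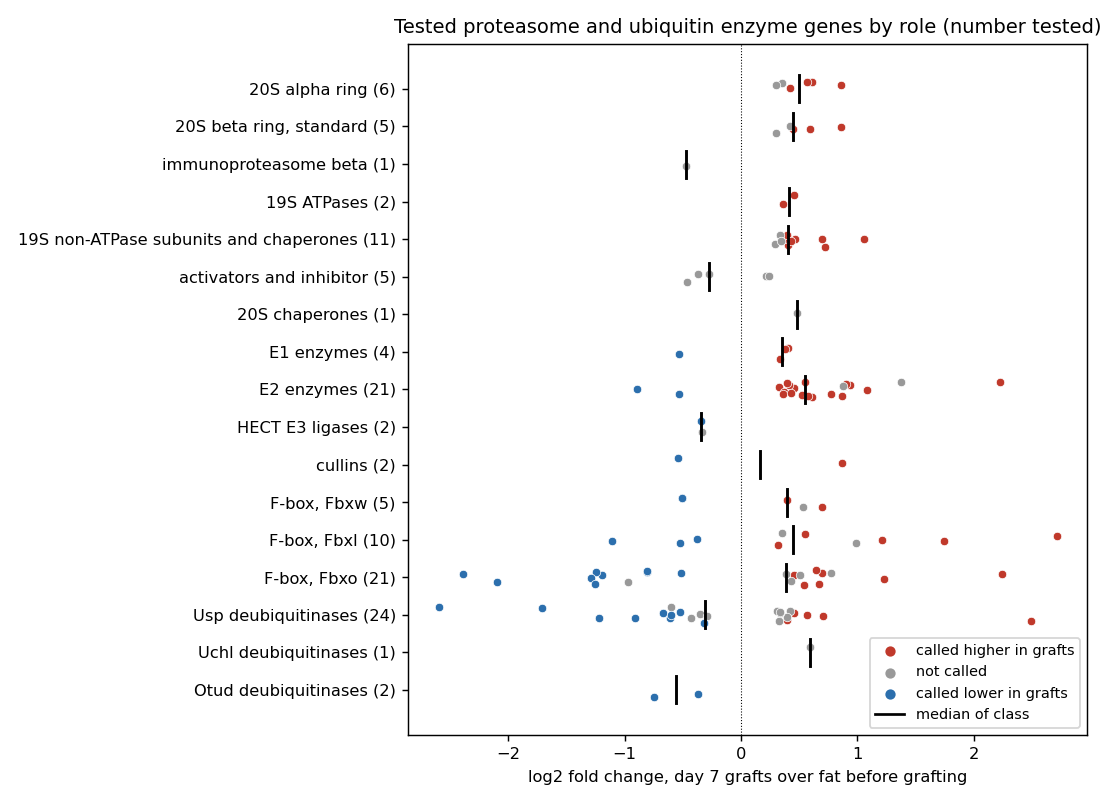
Each point is 1 tested gene, with its log2 fold change (day 7 grafts over fat before grafting, values as deposited) on the horizontal axis and its role on the vertical axis. Black bars are class medians: 0.50 for the alpha ring, 0.55 for E2 enzymes and -0.31 for Usp deubiquitinases, and both positive medians turn negative with ribosomal protein genes at no change.

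Markers of several cell types differed between the groups. The 8 adipocyte markers summed to between 9770 and 32957 normalized counts in grafts and between 235263 and 320484 before grafting, and all 8 were lower. The 8 macrophage markers summed to between 189062 and 198552 in grafts and between 21193 and 23984 before grafting, and the 6 neutrophil markers to between 39749 and 75856, against between 372 and 579. All 8 T and NK cell markers and all 5 B cell markers were lower in grafts, 4 of 5 fibroblast markers were higher, and 2 of 3 listed endothelial markers were lower. No marker of these lists was at 0 throughout a group, and none of the 6 skeletal muscle markers was in the table. In such bulk RNA, fewer cells of a type and less RNA per cell cannot be told apart, and the part of these shifts in the results below was not tested.

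Most of the listed standard proteasome genes were modestly higher in grafts as deposited, and unlisted ones were not analysed. The table lists 24 genes of the standard barrel and of the cap with its chaperones. Of these, 17 were higher in grafts, none was lower and 7 were not called. At an unadjusted limma p under 0.05, 24 were higher and 0 lower, against 5463 and 5309 of all 10854 tested genes. Under the other scalings, in the order given above, 9, 9, 7 and 0 of the 24 were called higher. With ribosomal protein genes at no change 2 were called lower, and none under the first 3 of these scalings. Of the calls among all tested genes, 44%, 44%, 40% and 26% were higher. With the replicate number as a block, 9 of the 24 were called higher. The values of the 3 grafts lay above those of the 3 libraries before grafting for all 24, in a table where the groups do not overlap for 97.6% of tested genes and the grafts lie above for 49.6%. Their log2 fold changes lay between 0.30 and 1.06, with a median of 0.42 and an SD over genes of 0.20, against an SD of 2.23 over all tested genes. Only 155 of 10854 tested genes lay between -0.25 and 0.3. Subunits with smaller changes may thus be unlisted, which limits what this range and SD say. With ribosomal protein genes at no change, 21 of the 24 turned negative, with a median of -0.31. Relative to the median of all tested genes, the median of the 24 was 0.14 higher as deposited and between 0.15 and 0.16 higher under the 4 other scalings. The count of 17 was 10 without graft replicate 1, graft replicate 2, before-grafting replicate 1 or before-grafting replicate 3.

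In the barrel, 4 of 6 alpha ring genes and 3 of 5 standard beta ring genes were called higher. Psma5, an alpha ring subunit, had 1269, 1206 and 1150 normalized counts in grafts, against 632, 690 and 671 before grafting. No graft was near the lower group, and the log2 fold change was 0.86 (SE 0.09, limma adjusted p = 0.000306). Psmb5, the chymotrypsin-like cutting subunit, had 1611, 1676 and 1555 in grafts, against 841, 1100 and 765 before grafting. The groups were apart, with most of the spread on the side of the fat before grafting, and the log2 fold change was 0.86 (SE 0.14, limma adjusted p = 0.00297). Psma2, Psma7 and the beta ring gene Psmb4 followed with log2 fold changes of 0.61, 0.57 and 0.59. Psmb6, the caspase-like cutting subunit, had 1645, 1587 and 1490 in grafts, against 1206, 1362 and 983, and was not called (log2 fold change 0.42, limma adjusted p = 0.0681). Summed over the 11 standard barrel genes, grafts held 19455 ± 1309 normalized counts and fat before grafting 13750 ± 593, a ratio of 1.42. That ratio fell below 1 (log2 ratio -0.24) with ribosomal protein genes at no change.

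In the cap, both listed ATPases and 8 of 11 other genes were called higher. Psmd10, an assembly chaperone of the cap also known as gankyrin, changed most among proteasome genes. It had 535, 567 and 577 normalized counts in grafts, against 282, 262 and 261 before grafting. That is a 2.09-fold difference, with a log2 fold change of 1.06 (SE 0.11, limma adjusted p = 0.000248), which stayed positive at 0.33 with ribosomal protein genes at no change but was not called there. Psmd8, a lid subunit, and Psmd9, another assembly chaperone, had log2 fold changes of 0.72 and 0.69. The exons of Psmd9 overlap those of the unlisted antisense gene Gm26745, and whether the counting used strand is not given in the sources used here. Psmc4 and Psmc3, the ATPases, had 0.46 and 0.36. Psmd14, the deubiquitinase of the cap, averaged 1266 ± 114 in grafts and 980 ± 48.9 before grafting (log2 fold change 0.37, limma adjusted p = 0.0461), and its adjusted p was between 0.0876 and 0.191 without any 1 library other than graft replicate 3. Psmc3 was likewise not called without graft replicate 1, 2 or 3 or before-grafting replicate 1 or 3, with adjusted p between 0.0541 and 0.126, and 215 of its 2607 exon bases overlap Slc39a13, which averaged 1479 in grafts and 544.5 before grafting. The 13 cap genes summed to 22530 ± 1372 in grafts and 16543 ± 743 before grafting, a ratio of 1.36, and the log2 ratio was -0.29 when ribosomal protein genes were held at no change.

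The libraries of a group kept an order across these genes. Among the grafts, replicate 1 was highest for 19 of the 24 genes and replicate 3 was lowest for 22 of them, where over all tested genes these replicates were highest for 41.9% and lowest for 38.5%. Before grafting, replicate 2 was highest for 16 of the 24, against 39.8% of all tested genes. The 24 genes are thus not 24 separate readings of the difference between groups.

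**Figure D2:**
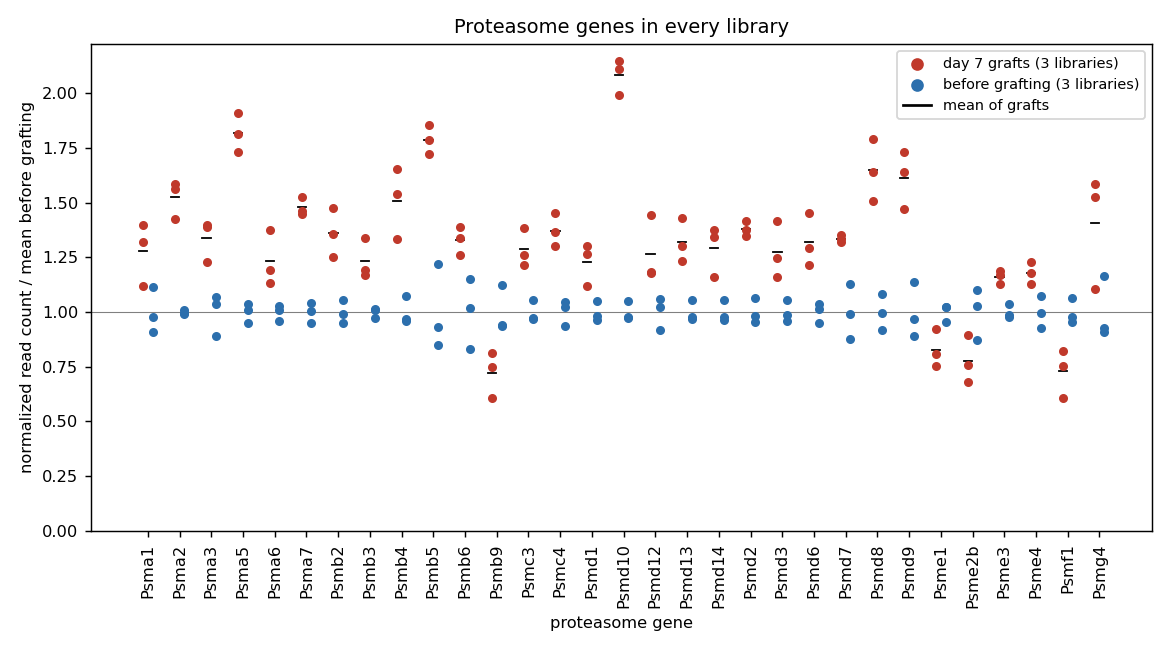
Every library is plotted for the 31 listed proteasome genes, as normalized read count divided by the gene's mean before grafting (vertical axis), grafts left in red and fat before grafting right in blue. Standard barrel and cap genes lie above 1 in grafts as deposited (21 of 24 turn negative on the log2 scale with ribosomal protein genes at no change), while Psmb9, Psme1, Psme2b and Psmf1 have graft means below 1.

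Among the interferon-linked and alternative parts of the proteasome no gene was called as deposited. Their difference from the standard subunits was examined only for Psmb9, by the ratios within libraries given below, which are no independent test. None of the 5 activator and inhibitor genes was called in either direction by limma, and their median log2 fold change was -0.28. At an unadjusted limma p under 0.05, 2 were higher and 3 lower, beside 5463 and 5309 of all 10854 tested genes. Psme1, a subunit of the interferon-induced activator, had 1468, 1671 and 1367 normalized counts in grafts, against 1856, 1731 and 1854 before grafting. All grafts were lower, by a log2 fold change of -0.28 (SE 0.10, limma adjusted p = 0.146). Psme3, the nuclear activator, averaged 1605 ± 42.2 in grafts and 1381 ± 43.4 before grafting, and Psme4, an activator best known from sperm development, 2442 ± 105 and 2073 ± 151. Their log2 fold changes, 0.22 and 0.24, were the smallest among the tested members. Psmf1, which binds the barrel and was first described as an inhibitor, averaged 386 ± 58.3 in grafts and 530 ± 30.4 before grafting (log2 fold change -0.46, limma adjusted p = 0.0621). Psme1, Psme2b and Psmf1 were called lower under each of the 3 scalings on the listed genes, and all 5 were when ribosomal protein genes were held at no change. Psme2b is a near-copy of Psme2, so its reads may be shared with that gene. The exons of Psme1 overlap those of Emc9 on the other strand by 14 bases.

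Psmb9, the immunosubunit that takes the place of Psmb6, had 634, 847 and 783 normalized counts in grafts, against 1171, 981 and 978 before grafting. All grafts were lower, at a log2 fold change of -0.47 (SE 0.14), just short of the threshold (limma adjusted p = 0.0534), and it was called lower under all 4 other scalings. A ratio between genes within a library does not depend on scaling. Per kilobase of deposited gene length, the ratio of Psmb9 to Psmb6 was 0.197, 0.273 and 0.269 in grafts, against 0.497, 0.369 and 0.509 before grafting. The groups did not overlap, and the mean ratio in grafts was 0.538 of that before grafting (exact two-sided permutation test, p = 0.1, the smallest that 3 against 3 libraries allow). The same ratio to Psmb5 was 0.115 ± 0.016 in grafts and 0.292 ± 0.065 before grafting. Psme1 over Psme3 was 1.25 ± 0.10 in grafts and 1.76 ± 0.12 before grafting, also without overlap (exact two-sided permutation p = 0.1). Each of 5 ratios computed, with Uba7 over Ube2l6 and Psme1 over Psme4 among them, gave an exact permutation p of 0.1, which Benjamini-Hochberg adjustment leaves at 0.1. In each ratio the first gene was lower, and the second higher, in every graft than in every library before grafting. Separate groups and this p were thus fixed by the single genes, in a table where the groups do not overlap for 97.6% of tested genes. The ratios add the size of the difference, not a further test. The exons of Psmb9 overlap those of Tap1, on the opposite strand, by 212 of 3660 bases.

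**Figure D3:**
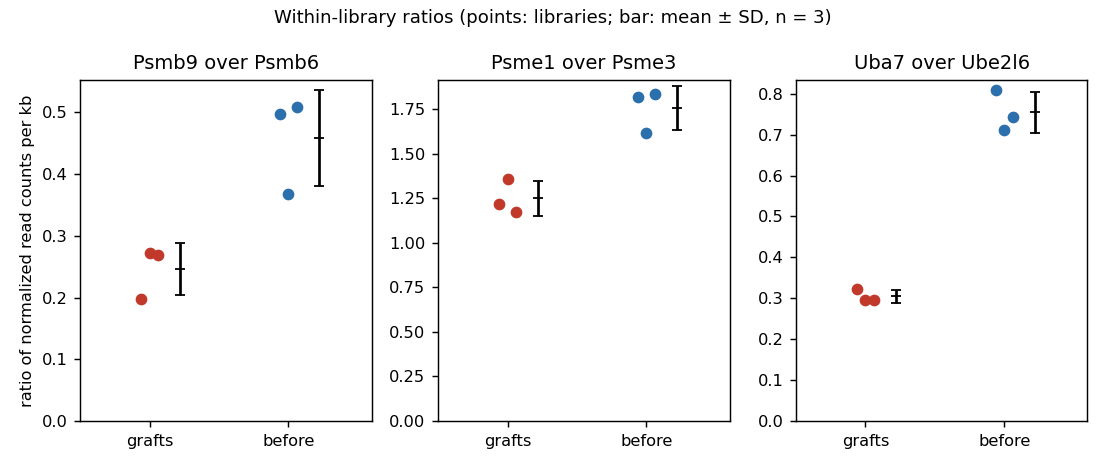
Each panel shows a ratio of normalized read counts per kilobase between a pair of genes in every library (points) with the mean ± SD of 3 libraries, grafts left and fat before grafting right. Groups do not overlap in any panel, which was fixed by the single genes, as both of each pair separated the groups in opposite directions. The means are 0.246 and 0.458 for Psmb9 over Psmb6, 1.25 and 1.76 for Psme1 over Psme3, and 0.305 and 0.755 for Uba7 over Ube2l6 (grafts, then before grafting).

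Of 4 tested E1 enzymes, 3 were called higher and 1 lower as deposited. Under each of the 4 other scalings none was called higher and 1 was called lower. Subunits of the E1 enzymes of SUMO (Uba2) and NEDD8 (Uba3) were higher, with log2 fold changes of 0.40 and 0.33. Both calls were close to the threshold. They were lost without graft replicate 1 (limma adjusted p = 0.0522 and 0.0685), graft replicate 2 (0.066 and 0.189), before-grafting replicate 1 (0.0607 and 0.152) or before-grafting replicate 2 (0.0504 and 0.0633). Uba3 was also lost without graft replicate 3 (0.117) or before-grafting replicate 3 (0.112). Both signs turned with ribosomal protein genes at no change. Uba7, the E1 of the interferon-induced modifier ISG15, went the other way. It had 759, 956 and 876 normalized counts in grafts, against 1449, 1146 and 1155 before grafting, a log2 fold change of -0.53 (SE 0.13, limma adjusted p = 0.0279). The groups were apart, but the call was lost without graft replicate 1 or 3 or before-grafting replicate 1 or 3, at adjusted p between 0.065 and 0.101.

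As deposited, 17 of 21 E2 enzymes were higher (81.0%, against 41.3% of all tested genes) and 2 lower, with a median log2 fold change of 0.55. Under the other scalings, in the order given above, 8, 9, 7 and 1 were called higher and 2 lower each time. Higher calls were thus 80%, 82%, 78% and 33% of E2 calls, against 44%, 44%, 40% and 26% for all tested genes. The median was between 0.27 and 0.29 above that of all tested genes under each of the 5 scalings, and was itself -0.18 with ribosomal protein genes at no change. The 17 higher calls were 9 without graft replicate 2 and 10 without before-grafting replicate 1. Ube2c, which builds the first ubiquitin on targets of the anaphase-promoting complex, had 448, 379 and 420 normalized counts in grafts, against 94.7, 63.8 and 112 before grafting. Every graft was over 3 times the highest library before grafting, at a log2 fold change of 2.23 (SE 0.22, limma adjusted p = 0.000197). Ube2s, which extends those chains, averaged 1220 ± 107 in grafts and 576 ± 73.4 before grafting, a 2.12-fold difference (log2 fold change 1.09). The 6 markers of cycling cells, all higher, summed to between 6099 and 7733 in grafts and between 1134 and 1952 before grafting, and their part in these values was not tested. The exons of Ube2c overlap those of the unlisted gene Tnnc2, and those of Ube2s the exons of Rpl28, which averaged 5670 in grafts and 3070 before grafting.

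E2 enzymes of related cascades were among the higher genes. Ube2f, one of the NEDD8 E2 enzymes, had 1228, 1186 and 1311 normalized counts in grafts, against 618, 706 and 624 before grafting (log2 fold change 0.94, SE 0.10, limma adjusted p = 0.000283). Ube2l6, the E2 of ISG15, had 702, 962 and 885 in grafts, against 534, 480 and 463 (log2 fold change 0.78, SE 0.14, limma adjusted p = 0.00503). It thus moved against its own E1: per kilobase, Uba7 over Ube2l6 was 0.323, 0.297 and 0.295 in grafts, against 0.808, 0.712 and 0.744 before grafting (exact two-sided permutation p = 0.1). As both genes separated the groups, in opposite directions, this ratio was bound to do so too. For Psmb9, Psme1, Psme2b, Uba7 and Ube2l6, all 5 linked to interferon, graft replicate 2 was the highest graft. Before-grafting replicate 1 was the highest library before grafting for all 5. Over all tested genes these replicates were highest for 30.8% and 34.9%. The 5 genes were put together with results of these data known.

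The lower E2 genes were Ube2h, which works with the CTLH ligase complex, and Ube2e2. Ube2h had 1723, 1878 and 1975 normalized counts in grafts, against 3448, 3954 and 3026 before grafting, a ratio of 0.535 (log2 fold change -0.90, SE 0.12, limma adjusted p = 0.00096). It was called lower under every alternative tried. Ube2e2 averaged 235 ± 29.8 in grafts and 339 ± 8.98 before grafting (log2 fold change -0.53, limma adjusted p = 0.0359), and its call was lost whichever of the 6 libraries was left out (adjusted p between 0.0541 and 0.141).

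The table lists 2 HECT ligases of this naming, of which 1 was called lower. Ube3b averaged 1452 ± 18.6 in grafts and 1845 ± 41.1 before grafting (log2 fold change -0.35, SE 0.08, limma adjusted p = 0.0204), with adjusted p between 0.0564 and 0.0992 when any 1 of the 6 libraries was left out. Ube3a, the imprinted ligase of Angelman syndrome, had a log2 fold change of -0.34 and was not called (limma adjusted p = 0.0572); its exons overlap those of the antisense transcript Snhg14, which averaged 29.9 in grafts and 59.9 before grafting. The listed cullins split. Cul7, a scaffold that binds Fbxw8, averaged 1244 ± 46.8 in grafts and 683 ± 83.9 before grafting, a log2 fold change of 0.87 (SE 0.11, limma adjusted p = 0.000859). Cul9, which binds p53 in the cytoplasm, averaged 482 ± 48.7 and 701 ± 58.8 (log2 fold change -0.54, limma adjusted p = 0.0152), with adjusted p between 0.0605 and 0.0631 without graft replicate 2 or 3 or before-grafting replicate 1 or 2.

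F-box genes, the substrate receptors of cullin ligases, were called in both directions: of 36 tested, 14 were higher and 14 lower as deposited (38.9% each, against 41.3% and 39.2% of all tested genes), of which 5 and 7 differed by 1 or more in log2 fold change. Under the other scalings, in the order given above, 11, 9, 5 and 3 were higher and 14, 14, 14 and 15 lower. Higher calls were thus 44%, 39%, 26% and 17% of F-box calls, against 44%, 44%, 40% and 26% for all tested genes. Their SD over genes was 1.13, against 0.20 for the listed standard proteasome genes and 2.23 for all tested genes. Without graft replicate 2, 8 were called higher, and without before-grafting replicate 2, 9 were called lower. Fbxl5, which senses iron and oxygen and marks the iron regulatory protein Ireb2 for degradation, changed most of all members. It had 11053, 9304 and 11366 normalized counts in grafts, against 1579, 1491 and 1759 before grafting. That is a 6.57-fold difference (log2 fold change 2.71, SE 0.11, limma adjusted p = 3.1e-06), which was called under every alternative tried. Its exons overlap those of Bst1 on the opposite strand by 98 of 9740 bases, and Bst1 averaged 3895 in grafts and 221 before grafting.

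Other F-box genes were higher from low levels. Fbxo17, of the F-box family that binds glycoproteins, had 206, 182 and 221 normalized counts in grafts, against 51.3, 40.5 and 35.4 before grafting (log2 fold change 2.24, SE 0.21, limma adjusted p = 0.000154). Fbxl16 averaged 95.7 ± 9.29 in grafts and 27.8 ± 2.77 before grafting (log2 fold change 1.75). Fbxl2 averaged 74.8 ± 5.38 and 32.4 ± 8.21 (log2 fold change 1.21), and its call was lost without before-grafting replicate 2 or 3 (limma adjusted p = 0.0513 and 0.0624). At a higher level, Fbxo30, a ligase subunit induced in wasting muscle, had 616, 834 and 874 in grafts, against 297, 354 and 328 before grafting (log2 fold change 1.23, SE 0.16, limma adjusted p = 0.000746). Fbxo32, or atrogin-1, the best known subunit of that kind, averaged 451 ± 69.8 in grafts and 317 ± 41.9 before grafting and was not called (log2 fold change 0.51, limma adjusted p = 0.0814).

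The falls were as large. Fbxo21, also linked to muscle wasting, had 469, 449 and 428 normalized counts in grafts, against 2429, 1616 and 1818 before grafting, a ratio of 0.230 (log2 fold change -2.10, SE 0.15, limma adjusted p = 3.5e-05). The 3 grafts differed little among themselves, whereas the libraries before grafting spread widely and all lay far above. Fbxo36 had 31.1, 26.2 and 14.8 in grafts, against 109.5, 147.9 and 120.0 before grafting (log2 fold change -2.39, SE 0.32, limma adjusted p = 0.000949). Fbxo45, a receptor enriched in the nervous system, averaged 455 ± 25.3 and 1122 ± 146 (log2 fold change -1.29), and Fbxl4, a mitochondrial protein whose loss depletes mitochondrial DNA, 301 ± 33.8 and 647 ± 33.6 (log2 fold change -1.11). All 4 were called lower under every alternative tried. In the Fbxw family, Fbxw11, which marks beta-catenin and IkB, and Fbxw9 were higher (0.39 and 0.70), and Fbxw2 and Fbxw5 were lower (-0.50 and -0.51). Of these, Fbxw2 kept its call without each library, while leaving out graft replicate 2 or before-grafting replicate 3 ended each of the other 3 calls (limma adjusted p between 0.0715 and 0.167). Fbxw11 was also lost without graft replicate 1 or before-grafting replicate 1 (0.0888 and 0.118), and Fbxw5 without graft replicate 3 or before-grafting replicate 2 (0.105 and 0.0818). Fbxw9 was also lost without graft replicate 1 or before-grafting replicate 1 or 2 (0.0622 to 0.12).

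Of 27 tested deubiquitinases by name, 5 were higher and 11 lower, with a median log2 fold change of -0.32. The share called lower, 40.7%, was close to the 39.2% of all tested genes, and the share called higher was 18.5%, against 41.3%. Under the other scalings, in the order given above, 3, 3, 2 and 1 were higher and 14, 11, 15 and 15 lower. Higher calls were thus 18%, 21%, 12% and 6% of deubiquitinase calls, against 44%, 44%, 40% and 26% for all tested genes. The 24 Usp genes had a median 0.59 below that of all tested genes as deposited, and between 0.57 and 0.58 below it under the 4 other scalings. The 11 lower calls were 5 without before-grafting replicate 1, 6 without graft replicate 2, and 7 without graft replicate 3 or before-grafting replicate 3. Usp2, whose transcript follows the circadian clock in many tissues, had 63.3, 79.5 and 103 normalized counts in grafts, against 421, 592 and 472 before grafting. The log2 fold change of -2.59 (SE 0.22, limma adjusted p = 8.27e-05) was the most negative of all members. Usp43 averaged 14.5 ± 5.88 in grafts and 47.7 ± 5.04 before grafting (log2 fold change -1.71), with a limma adjusted p of 0.0554 without before-grafting replicate 1. Usp11 averaged 111 ± 9.37 and 262 ± 50.7 (log2 fold change -1.22). Otud1 and Otud4 were lower as well, by log2 fold changes of -0.75 and -0.37. The call of Otud1 was lost without before-grafting replicate 1 (limma adjusted p = 0.0507), and that of Otud4 without any 1 library other than before-grafting replicate 2 (0.0659 to 0.163).

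Usp13, which removes ubiquitin from several autophagy and degradation factors, was the exception with a large rise. It had 85.4, 142.6 and 228.5 normalized counts in grafts, against 19.7, 34.4 and 20.7 before grafting. The grafts spread widely but stayed apart from the other group (log2 fold change 2.49, SE 0.39, limma adjusted p = 0.00252). Usp22, the deubiquitinase of the SAGA complex that acts on histones, and Usp32 were higher by 0.71 and 0.57, and both turned slightly negative with ribosomal protein genes at no change. Uchl1, abundant in neurons, averaged 90.1 ± 20.7 in grafts and 58.7 ± 9.35 before grafting; the groups overlapped and it was not called (log2 fold change 0.59, limma adjusted p = 0.252). Psma5, Psmb5, Uba7, Fbxl2, Fbxo32, Fbxw9, Uchl1, Usp2 and Usp43 also share exon sequence with another gene, over 60 to 609 bases.

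**Figure D4:**
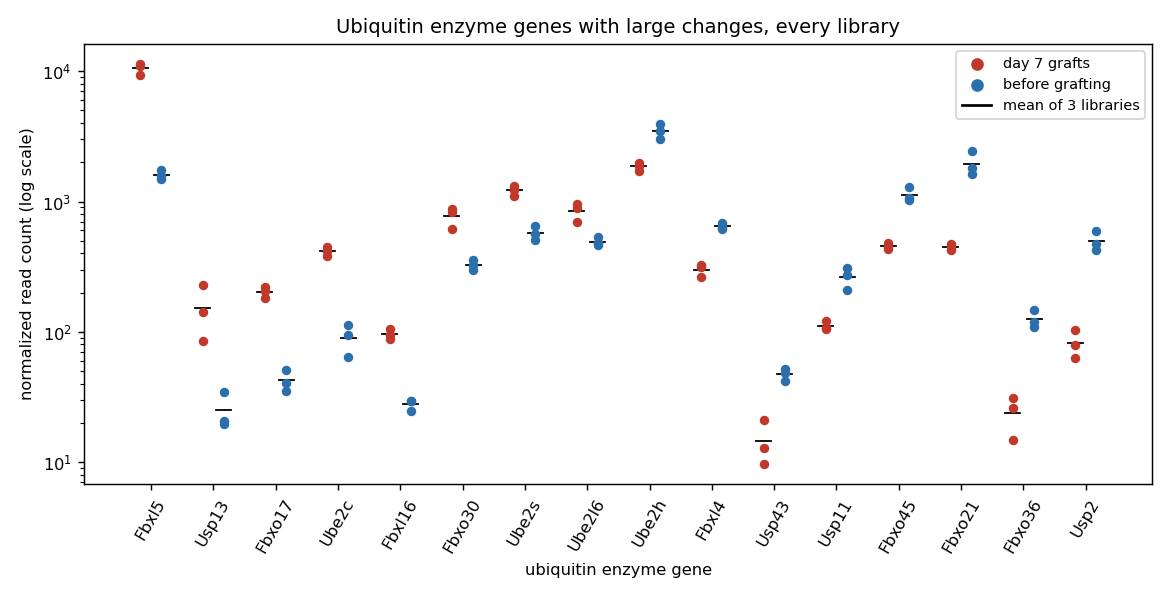
Normalized read counts (log axis) of 16 ubiquitin enzyme genes in every library, grafts left in red and fat before grafting right in blue, with bars at the means of 3 libraries. Fbxl5 lies between 9304 and 11366 in grafts and between 1491 and 1759 before grafting, and Usp2 between 63.3 and 103 in grafts and between 421 and 592 before grafting.

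Other genes of the pathway, nearly all outside the name rule, were counted in lists, beside 41.3% higher and 39.2% lower over all tested genes. The members Fbxo5 (anaphase-promoting complex, not called) and Uba2 (SUMO, higher) were counted again there. Of the 2 listed ubiquitin genes, Rps27a was called higher (log2 fold change 0.98). Of 8 other proteasome parts and shuttle factors, 4 were higher and 2 lower: the cap subunit Sem1 was higher by 1.44, and the shuttle Ubqln1 lower, at -0.80. Among 11 known or candidate regulators of proteasome genes, 7 were higher and 3 lower. Nfe2l1 had 4867, 4663 and 4378 normalized counts in grafts, against 7773, 9121 and 6789 before grafting, so this activator of proteasome genes was lower (log2 fold change -0.76, SE 0.12, limma adjusted p = 0.00294). Its relative Nfe2l2, the oxidant-responsive factor, averaged 4114 ± 688 in grafts and 1838 ± 131 before grafting (log2 fold change 1.15, SE 0.14, limma adjusted p = 0.00051). Maff, a small partner of both, was higher by 3.35, and Foxo1, a regulator of muscle ligases, lower, at -2.24.

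In the cullin and NEDD8 machinery, 9 of 18 listed genes were higher and 4 lower, led by Ccnf (1.97), Skp2 (1.18), Ddb2 (-1.44) and Dcun1d3 (-0.92). The anaphase-promoting complex had 7 of 11 higher and 1 lower, with Cdc20, the mitotic activator, at 2.29. Of 24 other HECT and RING-between-RING ligases 5 were higher (20.8%) and 10 lower (41.7%, close to the share over all tested genes). Of these, Rnf19b was at 2.06 and Hecw2 at -2.04, with 89.3 ± 6.72 normalized counts in grafts and 375 ± 85.1 before grafting. Of 10 other deubiquitinases 5 were higher and 1 lower. Tnfaip3, or A20, the brake on NF-kB, led them with 8430 ± 1427 in grafts and 733 ± 207 before grafting (log2 fold change 3.55). In degradation from the endoplasmic reticulum, 4 of 11 were higher and 4 lower. In class I antigen processing, which uses proteasome products, 3 of 10 were higher and 3 lower, with the chaperone Pdia3 at 1.02 and H2-K1 at -0.72. Called or not, 7 of these 10 had a log2 fold change below 0, beside 5345 of 10854 tested genes, and their list's median was -0.51. Among 20 genes of SUMO, ISG15, UFM1 and autophagy conjugation, 11 were higher and 3 lower, with Isg15 at 1.40, Ufsp2 at 1.07, Map1lc3a at -1.07 and Usp18 at -1.05.

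**Figure D5:**
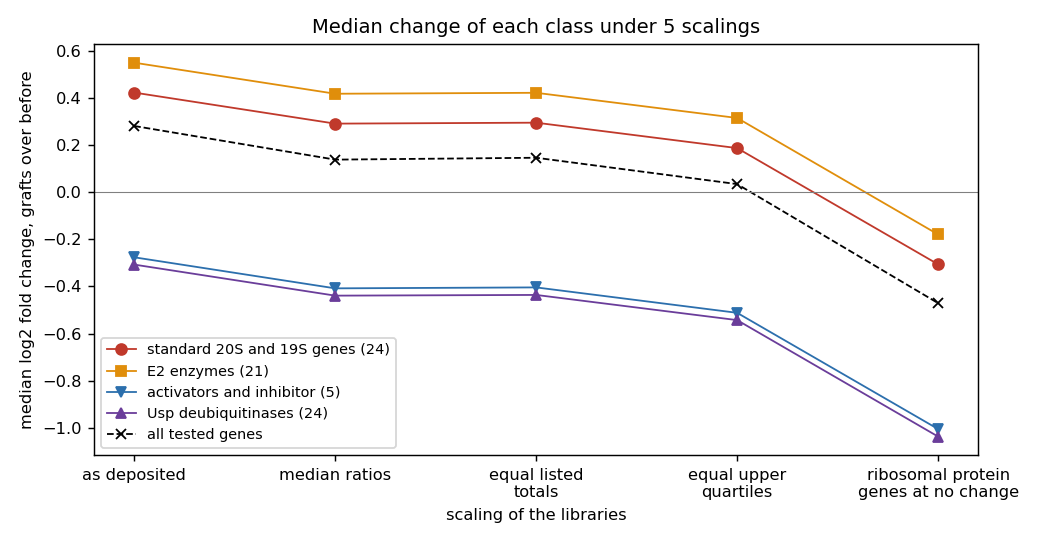
Median log2 fold change (grafts over before grafting, vertical axis) of 4 classes and of all tested genes under 5 scalings of the libraries (horizontal axis). The lines run nearly parallel: the standard proteasome and E2 medians stay above that of all tested genes and the activator and Usp medians below it, while the sign of the proteasome and E2 medians turns with ribosomal protein genes at no change.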

How the data were processed

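Total RNA of 6 fat libraries was sequenced on an Illumina instrument, per the labels. The deposited signal is per gene. From its values, the authors had divided reads by a size factor for each library, since 100% of values were whole multiples of 1 step (0.96979 to 1.01304) within 0.01 reads. Deposited totals of listed genes were 12846005 to 15443409 per library. The deposited gene lengths (unit: other, in bases) were used for values per kilobase, and the authors' group means, another deposited signal, were not used. Bowtie 0.12.2, HISAT2 2.0.5, mm8 and mm9 are named, per the submitters' processing notes, but coordinates match GRCm38: 12151 of 12163 listed genes were in GENCODE M21, 12011 within 1000 bp. The sources used here do not give the counter, its use of strand or the gene filter. Overlapping genes may therefore share reads, and 40 members share exon sequence with another gene.

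Log2(value + 1) was fitted on group alone in R 4.3.3 by limma 3.58.1, two-sided, with robust variance moderation and a trend in the mean. Tested genes reached 10 in 3 or more libraries. Benjamini-Hochberg adjustment ran over 55450 annotated genes, unlisted ones at the highest p, and the threshold was 0.05. The variance prior rests on selected genes, which limits every p. Ratios were tested by exact permutation. Tables and figures used Python 3.11.15, numpy 2.4.6, pandas 2.3.3, scipy 1.17.1 and matplotlib 3.10.9. No libraries of a group were alike within counting noise (chi-square per gene between 22.0 and 52.2).

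Members and gene lists were chosen with earlier results of these data known. Named were 27 members picked by role, of which 11 were outside the table, the up to 3 called higher and 3 called lower with the largest change in each role class, the highest and lowest of a class without calls, and up to 2 in each direction per pathway list. Other names complete a count of 5 or fewer or a library order and were chosen after their values were seen. Alternatives covered the pseudocount, filter, scaling, adjustment, replicate block and each library left out. Results of a few named genes were left out here.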

Additional observations from a re-analysis of the deposited data

How the results depend on the processing

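The 5 largest rises (Fbxl5, Fbxl16, Fbxo17, Ube2c and Usp13) and 14 of 30 falls kept their call under every alternative run. Holding ribosomal protein genes at no change, the counts of higher calls were 1922 for all tested genes, 5 for members, 0 for proteasome genes and 5 for ubiquitin enzymes, and 8 proteasome genes were lower. Higher calls of members, proteasome genes and enzymes were 32, 9 and 23 after median ratios, 31, 9 and 22 with equal listed totals, and 22, 7 and 15 with equal upper quartiles, each with 4 proteasome genes lower. A pseudocount of 5, or no filter, gave 1 proteasome gene lower. Adjustment over the tested genes alone called 27 proteasome genes higher and 4 lower. Leaving out 1 library gave 33 to 47 members higher and 18 to 23 lower, 10 to 15 proteasome genes higher and 0 to 1 lower, 23 to 33 enzymes higher and 18 to 22 lower, and 2770 to 3978 of all tested genes lower. The log2 ratio of Psmb9 to Psmb6, -0.90, was between -1.05 and -0.74.

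Holding ribosomal protein genes at no change, these log2 fold changes turned negative: Psma2 -0.12, Psma7 -0.16, Psmb2 -0.29, Psmb4 -0.14, Psmb6 -0.31, Psmc3 -0.37, Psmc4 -0.27, Psmd14 -0.36, Psmd8 -0.01, Psmd9 -0.036, Psme3 -0.51, Psme4 -0.49, Psmg4 -0.25, Uba2 -0.33, Uba3 -0.40, Uchl1 -0.13, Usp22 -0.023, Usp32 -0.16, Fbxo10 -0.03, Fbxo32 -0.22, Fbxw11 -0.34 and Fbxw9 -0.027, as did the summed barrel (-0.24) and cap (-0.29). Psme3 was also -0.019 with equal upper quartiles. These shifts follow from the scaling itself, which moves every gene alike. For lost calls without a library, fewer samples were tested, and any further cause was not tested.

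No pairing by replicate number was seen: deviations of same-numbered libraries correlated at -0.16, -0.13 and 0.04, and those of other pairs at between -0.07 and 0.17. With 3 libraries per group this cannot exclude pairing. With the replicate block, 38 members were higher and 19 lower, with 9 proteasome genes higher and 29 enzymes higher and 19 lower. The planned count models were not run, because in 2 libraries the step lay too near 1 for the rule that accepts recovered reads, although all values were whole multiples of the step. Depth limits the low members most, and the full depth of the libraries is unknown.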

Other observations

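Genes of ISG15 conjugation, 1 interferon-induced cascade, went in different directions. The modifier Isg15 averaged 471 ± 191 normalized counts in grafts and 176 ± 57.3 before grafting (log2 fold change 1.40, limma adjusted p = 0.0186), and its E2, Ube2l6, was also higher. Its E1, Uba7, was lower, as was Herc6, a ligase of ISG15 in mice, with 234, 333 and 249 in grafts, against 485, 451 and 400 before grafting (log2 fold change -0.72, limma adjusted p = 0.0176). Usp18, the protease that removes ISG15, averaged 137 ± 32.5 and 284 ± 66.5 (log2 fold change -1.05, limma adjusted p = 0.0147). These genes were put together after their values were seen. The only comparison between them, the ratio of Uba7 to Ube2l6, was no independent test.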
